A study of Mus musculus with 4 samples.

Results

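The genes examined were the TGF-beta ligands Tgfb1, Tgfb2 and Tgfb3, the receptors Tgfbr1 and Tgfbr2, the signal transducer Smad3, the feedback inhibitor Smad7, and the target genes Tgfbi and Ccn2 (formerly Ctgf). They were chosen by name, as all probe sets whose platform annotation gives a single symbol among these 9. This took 23 of the 34958 probe sets with a single symbol, for 9 of 18194 genes. Expression was measured on 4 Affymetrix arrays, 1 for each group of flow-sorted mouse AEC2, the alveolar type II cells that make surfactant. The groups were TLR4-/- cells 4 days after bleomycin (an injurious drug used to start lung fibrosis), TLR4-/- untreated cells, wild-type cells 4 days after bleomycin, and wild-type untreated cells. Each array read RNA pooled from 4 to 5 mouse lungs, so mice within a group were not separate samples, and no group had a replicate array. Tlr4 encodes a receptor of innate immunity. The sources used here do not give its deleted allele, the strain, age or sex of the mice, or the bleomycin dose.

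TGF-beta is secreted in a latent form bound to its own propeptide and to matrix, and integrins on epithelial cells are among its main activators in the lung. The active ligand binds the type II receptor, which recruits and phosphorylates the type I receptor. This in turn phosphorylates SMAD2 and SMAD3, which enter the nucleus with SMAD4 and change the transcription of matrix and growth-control genes. In the fibrotic lung the pathway is known for driving matrix deposition by fibroblasts, and for holding back proliferation of epithelial cells.

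The upstream sequence is shown for the members whose day 4 arrays both exceeded both untreated arrays and that have a window in the RefSeq table (GRCm38.p6), namely Tgfbi, Tgfb2 and Tgfbr2. Each window is the 250 bases before a transcript start, read on the gene's strand. The core Smad motif CAGAC, searched on both strands, is in capitals. Its reverse complement is GTCTG.
Tgfbi, chr13:56609336-56609585, plus strand: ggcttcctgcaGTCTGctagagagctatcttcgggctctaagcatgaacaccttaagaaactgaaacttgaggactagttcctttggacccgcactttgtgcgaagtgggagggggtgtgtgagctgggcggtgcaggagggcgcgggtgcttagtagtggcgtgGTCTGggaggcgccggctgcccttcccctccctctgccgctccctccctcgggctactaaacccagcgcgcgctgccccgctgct
Tgfb2, chr1:186705990-186706239, minus strand: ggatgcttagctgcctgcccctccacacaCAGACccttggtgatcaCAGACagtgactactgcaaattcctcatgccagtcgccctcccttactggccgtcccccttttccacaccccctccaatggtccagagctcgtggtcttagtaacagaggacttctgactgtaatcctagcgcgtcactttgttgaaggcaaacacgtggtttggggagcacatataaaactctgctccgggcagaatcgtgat
Tgfbr2, chr9:116175364-116175613, minus strand: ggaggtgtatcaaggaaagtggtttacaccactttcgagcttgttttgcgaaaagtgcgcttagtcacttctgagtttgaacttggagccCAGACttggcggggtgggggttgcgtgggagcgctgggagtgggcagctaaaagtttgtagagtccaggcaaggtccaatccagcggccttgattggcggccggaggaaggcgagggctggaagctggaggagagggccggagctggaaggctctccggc
The motif was at 2 places in the windows of Tgfbi and Tgfb2 and at 1 in that of Tgfbr2, and 42.2% of the 32851 windows of this length in the table held it at least once. For the 9 genes, windows on 1 chromosome were passed over, although the share over all windows includes them. Of the 9 genes, 6 had a window among those searched (7 windows in all). Of the searched windows not shown, only 1 of Tgfbr1 held the motif. The AP-1 motif TGANTCA (in 6.75% of all windows) and the TEAD motif GGAATG (12.6%) were in none of the windows of these 6 genes. No motif searched overlapped another in the printed windows. A match in letters is not a measured binding site.

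Probe set values as deposited were taken as log2 signals, and a gene's value is the average over its probe sets. Levels cannot be compared between genes, since each probe set has its own response. A gene entered the tests when its mean over the 4 arrays exceeded the median gene, a log2 signal of 7.05, and 7 of the 9 did. Tgfb1 and Tgfb2 did not, with means of 6.76 and 6.24. The effect of bleomycin across both genotypes and of genotype across both treatments was tested with limma in an additive model over the 4 arrays, with Benjamini-Hochberg adjustment over 9097 genes. This model has 1 residual degree of freedom and takes any difference between the genotypes' responses as error. On simulated data it made more false calls than the threshold of 0.05 allows, so an adjusted p here overstates the certainty of a call. A difference between 2 single arrays has no test. It is set beside 0.23, the prior standard deviation of the fit for such a difference, which is not a spread between replicates.

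Sftpc, the surfactant protein C gene, read 14.05 and 14.06 in the TLR4-/- and wild-type day 4 arrays and 14.02 and 14.03 in the untreated ones. These values lie near the top of each array's range (the lowest of the 4 maxima is 14.48), so they show the AEC2 transcript on every array but not an equal content of AEC2. The arrays correlated across probe sets with Pearson's r of 0.973 to 0.992 (description only). Of 4 Tlr4 probe sets, 1 was lower in TLR4-/- than in wild type, with log2 differences of -2.68 at day 4 (6.39 against 9.07) and -1.63 in untreated cells (7.24 against 8.87). Of the others, 2 were higher in TLR4-/- by 0.41 to 0.66 and 1 was dim throughout. The sources used here do not say which of them lie in the deleted part. Eif2s3y, a Y-linked gene, was higher at day 4 by 2.01 in TLR4-/- and by 2.04 in wild type. Kdm5d, also Y-linked, was higher by 1.27 and 1.02, and the difference of Xist was -1.27 and -0.62. Sex-linked signals thus moved with the treatment in both genotypes. The sex of the pooled mice is not given. The part of sex in the results below was not tested, and these arrays do not separate it from that of bleomycin.

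The pair of target genes, Tgfbi and Ccn2, rose after bleomycin, and no other of the 7 tested genes passed. The count of 2 higher and 0 lower of 7 stands beside 7.18% of all tested genes called higher and 2.53% called lower. Tgfbi encodes a secreted matrix protein induced by TGF-beta, and Ccn2 encodes connective tissue growth factor, a matricellular protein. Both day 4 arrays lay above both untreated arrays for 3 of the 7 genes (Tgfbi, Ccn2 and Tgfbr2), a pattern seen in 30.4% of all tested genes. All were below for 0 of the 7, against 21.7%.

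Tgfbi read 10.41 in TLR4-/- cells at day 4, against 9.62 in TLR4-/- untreated cells, and 10.25 in wild-type cells at day 4, against 8.67 in wild-type untreated cells. The wild-type untreated array was the lowest by far, and the day 4 arrays of the genotypes nearly met. The difference after bleomycin was 0.79 (1.73-fold) in TLR4-/- and 1.57 (2.98-fold) in wild type. Across genotypes the effect was 1.18 ± 0.19 (SE, limma, higher in 2 of 2 genotypes, adjusted p = 0.00176). All 4 Tgfbi probe sets showed the same order of arrays, from TLR4-/- day 4 as the highest to wild-type untreated as the lowest. They read 1 transcript and are not independent. Their differences ran from 0.56 to 1.02 in TLR4-/- and from 1.35 to 1.74 in wild type, and each was called when probe sets were tested singly (limma adjusted p of 0.00584 to 0.0357, with 3.78% of 17479 probe sets called higher and 1.3% lower).

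Ccn2, read by 1 probe set, gave 8.80 in TLR4-/- cells at day 4, against 7.39 in TLR4-/- untreated cells, and 8.79 in wild-type cells at day 4, against 7.87 in wild-type untreated cells. The TLR4-/- untreated array was the lowest here, so the larger difference was the one in TLR4-/-. It was 1.41 (2.65-fold) in TLR4-/- and 0.92 (1.89-fold) in wild type. The limma effect across genotypes was 1.16 ± 0.17 (SE, higher in 2 of 2 genotypes, adjusted p = 0.000957).

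At the 2-fold threshold, 1 of the 7 tested genes was higher after bleomycin in TLR4-/- (Ccn2, with 2.45% of all tested genes there) and 1 in wild type (Tgfbi, with 2.55%). None of the 7 was 2-fold lower, against 0.89% in TLR4-/- and 0.308% in wild type. Without the TLR4-/- day 4 array the effects were 1.10 for Tgfbi and 1.16 for Ccn2, and without the wild-type day 4 array 1.26 and 1.17. Neither gene was called in these fits, in which nearly all calls over all genes were lost too. They leave 1 array at day 4 and hold no genotype term. As calls over all genes were lost too, the loss is not particular to Tgfbi and Ccn2. Fits that left out an untreated array hold no genotype term either. Without the TLR4-/- untreated array the effects were 1.66 for Tgfbi and 0.92 for Ccn2. Without the wild-type untreated array they were 0.71 and 1.40. The cause of the lost calls was not tested. Tgfbi was also not called with all 18194 genes tested (adjusted p = 0.0645) or when only its brightest probe set was used (effect 0.95, adjusted p = 0.0688). With single probe sets tested and no filter, neither the Ccn2 probe set (limma adjusted p = 0.0656) nor any of the 4 of Tgfbi (0.0568 to 0.136) was called.

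**Figure D1:**
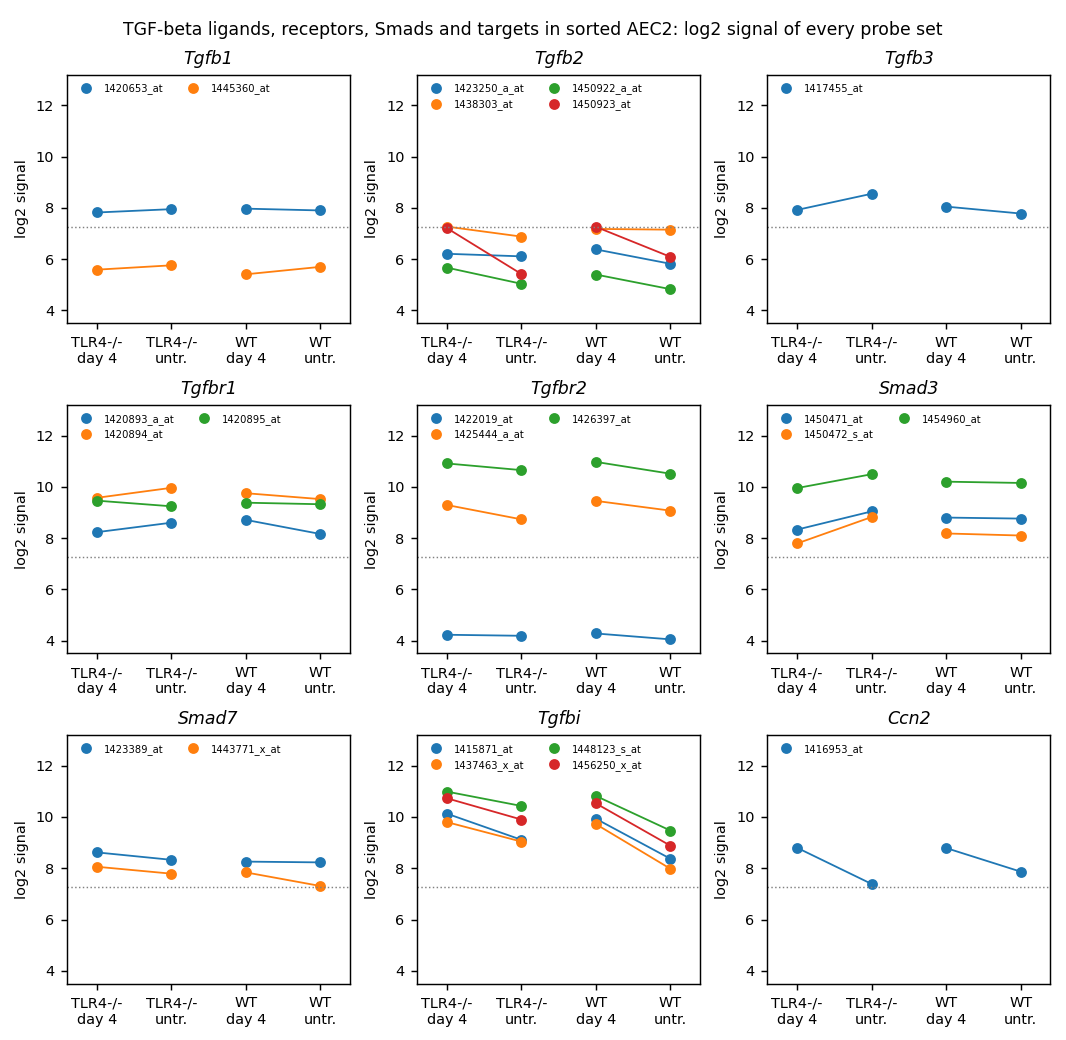
Log2 signal (vertical axis) of each of the 23 probe sets on each of the 4 arrays, 1 panel per gene. Each colour is a probe set, lines join day 4 to untreated within a genotype, and the dotted line at 7.27 is the filter on a probe set's mean. All 4 Tgfbi probe sets are lowest in the wild-type untreated array, and all 3 Smad3 probe sets are highest in the TLR4-/- untreated array.

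Among the ligands, only Tgfb2 had day 4 signals above the untreated ones, and it was dim. Tgfb2 encodes TGF-beta 2, which needs the co-receptor betaglycan for strong binding to the type II receptor. Its probe set with the widest range (1450923_at) read 7.21 in TLR4-/- cells at day 4, against 5.42 in TLR4-/- untreated cells, and 7.26 in wild-type cells at day 4, against 6.09 in wild-type untreated cells. Both day 4 values lay well above both untreated values. The differences were 1.79 (3.46-fold) in TLR4-/- and 1.17 (2.25-fold) in wild type, over untreated signals so dim that the size of the fold is uncertain.

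The 3 other Tgfb2 probe sets also had both day 4 arrays above both untreated ones, with smaller differences of 0.10 to 0.64 in TLR4-/- and 0.03 to 0.57 in wild type. All 4 were below the filter. When every probe set was tested without a filter, an alternative added after the data were seen, the effect of 1450923_at was 1.48 ± 0.20 (SE, limma adjusted p = 0.0489), where 0.83% of 34958 probe sets were called higher and 0.0629% lower. The other 3 gave 0.21 to 0.60 with an adjusted p of 0.152 to 0.609. For the gene average without a filter, the effect was 0.66 ± 0.13 (SE, limma adjusted p = 0.0795, with 1.75% of 18194 genes called higher and 0.264% lower), so the gene as a whole was not called.

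Tgfb1 encodes the ligand most often tied to lung fibrosis. Its brighter probe set read 7.82 in TLR4-/- cells at day 4, against 7.95 in TLR4-/- untreated cells, and 7.97 in wild-type cells at day 4, against 7.90 in wild-type untreated cells. The 4 values lay within 0.16 of each other, under the 0.23 used for single arrays, and limma gave -0.03 ± 0.18 (SE, adjusted p = 0.961). The dim probe set of Tgfb1 read 5.41 to 5.76. A change in the amount or activation of TGF-beta 1 protein would not be seen in these data.

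Tgfb3 encodes the third ligand and had 1 probe set. It read 7.92 in TLR4-/- cells at day 4, against 8.55 in TLR4-/- untreated cells, and 8.05 in wild-type cells at day 4, against 7.78 in wild-type untreated cells. The TLR4-/- untreated array stood above the other 3. The difference after bleomycin was thus -0.63 in TLR4-/- and 0.27 in wild type, and the limma effect of -0.18 ± 0.20 (SE) was not called (adjusted p = 0.654).

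Neither receptor gene was called. Tgfbr2, the type II receptor that binds the ligand first, was higher at day 4 by 0.29 in TLR4-/- (8.14 against 7.86) and by 0.36 in wild type (8.23 against 7.88). The limma effect was 0.32 ± 0.16 (SE, adjusted p = 0.232). Its 2 bright probe sets were higher by 0.26 to 0.56 in TLR4-/- and by 0.38 to 0.46 in wild type, while the last was dim, at 4.05 to 4.28. Tgfbr1, the type I receptor kinase that phosphorylates SMAD3, read 9.09 in TLR4-/- cells at day 4, against 9.26 in TLR4-/- untreated cells, and 9.28 in wild-type cells at day 4, against 9.0 in wild-type untreated cells. Its effect was 0.05 ± 0.17 (SE, limma adjusted p = 0.889), and of its 3 probe sets 2 had opposite signs in the genotypes while 1420895_at was higher in both (0.23 in TLR4-/- and 0.06 in wild type).

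Smad3, the receptor-activated transcription factor of the pathway, was lower at day 4 in TLR4-/- and level in wild type. It read 8.69 in TLR4-/- cells at day 4, against 9.45 in TLR4-/- untreated cells, and 9.06 in wild-type cells at day 4, against 9.01 in wild-type untreated cells. The TLR4-/- arrays were the highest and the lowest of the 4, with the wild-type arrays between them. The same order held in 3 of 3 Smad3 probe sets, with differences of -1.03 to -0.55 in TLR4-/- and 0.04 to 0.08 in wild type. The largest of these (1450472_s_at) was 2.04-fold lower at day 4 in TLR4-/-. The limma effect of -0.35 ± 0.19 (SE) was not called (adjusted p = 0.301).

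Smad7, the inhibitory Smad that TGF-beta itself induces, read 8.34 in TLR4-/- cells at day 4, against 8.06 in TLR4-/- untreated cells, and 8.05 in wild-type cells at day 4, against 7.77 in wild-type untreated cells. It was higher by 0.28 in both genotypes, and the limma effect of 0.28 ± 0.15 (SE) was not called (adjusted p = 0.301). Its 2 probe sets did not give the same picture in wild type, with 0.03 for 1423389_at and 0.53 for 1443771_x_at, whose suffix marks probes that may also bind other transcripts.

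**Figure D2:**
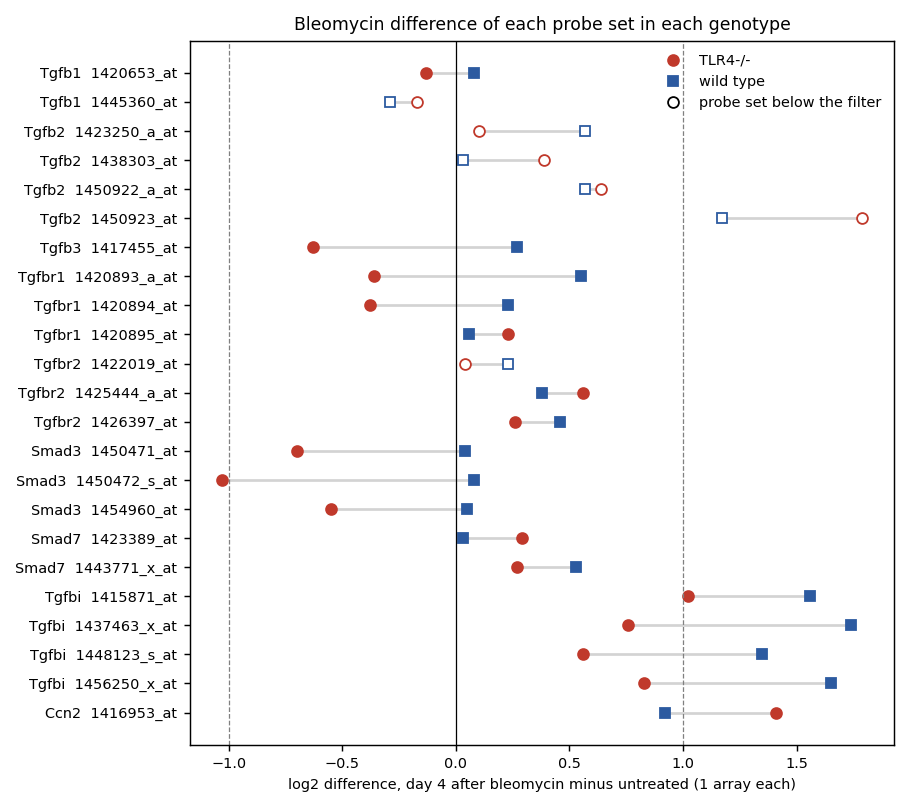
Difference on the log2 scale, day 4 minus untreated (horizontal axis), for each of the 23 probe sets in TLR4-/- (red circles) and wild type (blue squares), from 1 array per group. Open symbols mark probe sets below the filter, and dashed lines mark 2-fold. The 4 Tgfbi probe sets have the larger difference in wild type (1.35 to 1.74), while Ccn2 and Tgfb2 probe set 1450923_at have the larger one in TLR4-/- (1.41 and 1.79).

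Genotype had no called effect on any of the 7 genes. Limma called 0 of 7, and 0.0% of all genes tested were called higher and 0.0% lower (822 genes had an unadjusted p under 0.05, and the smallest adjusted p was 0.153). A probe-set filter before averaging called 23 genes higher and 10 lower in TLR4-/-, none of them among the 9. Tgfbi came closest, at 0.56 ± 0.19 (SE, limma adjusted p = 0.372), although its effect was -0.23 without the wild-type untreated array. It was followed by Smad7 at 0.29 ± 0.15 (SE, limma adjusted p = 0.616). On the gene average Smad7 was the more even of them, higher in TLR4-/- by 0.30 at day 4 and by 0.29 in untreated cells. Its probe sets were not even singly. The difference was 0.36 at day 4 and 0.10 in untreated cells for 1423389_at, and 0.23 and 0.49 for 1443771_x_at.

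The genotype difference was smaller in size at day 4 than in untreated cells for 5 of the 7 tested genes, against 59.2% of all tested genes, and this was not tested. The arrays as a whole correlated at 0.992 between genotypes at day 4 and at 0.982 in untreated cells. At day 4 the TLR4-/- minus wild-type difference was 0.16 for Tgfbi, 0.01 for Ccn2, -0.13 for Tgfb3, -0.19 for Tgfbr1 and -0.37 for Smad3, and in the other 2 genes -0.09 for Tgfbr2 and 0.30 for Smad7. In untreated cells it was 0.95 for Tgfbi (1.93-fold), 0.76 for Tgfb3 (1.70-fold), 0.44 for Smad3, 0.26 for Tgfbr1 and -0.48 for Ccn2, with -0.02 for Tgfbr2 and 0.29 for Smad7. None of the 7 tested genes reached 2-fold either way at day 4 (0.044% of all tested genes were 2-fold higher and 0.055% lower) or in untreated cells (0.78% higher and 0.341% lower). On single probe sets, 2 of the 4 of Tgfbi reached 2-fold in untreated cells, at 1.06 and 1.02. Counted as genes with at least 1 such probe set past the filter, this was 1 of 8 members, against 2.07% of 9804 genes. By the same count 2 of the 8 were higher at day 4 in TLR4-/- (Ccn2 and Tgfbi, against 3.79%), 1 was lower (Smad3, against 2.55%), and 1 was lower in the difference of responses (Smad3, against 3.27%). A gene with several probe sets has more chances to be counted.

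The responses of the genotypes differed in size or sign for Tgfb3 (-0.90, the response in TLR4-/- minus that in wild type), Smad3 (-0.82), Tgfbi (-0.78), Ccn2 (0.49) and Tgfbr1 (-0.45). With 1 array per group this difference could not be tested, and it uses the same values as the comparisons above. None of the 7 reached 2-fold in it, as 0.671% of tested genes did upward and 0.846% downward. Responses of opposite sign, each over 0.23, were seen for 1 of the 7 (Tgfb3), against 3.69% of all tested genes. The TLR4-/- untreated array was the highest of the 4 for 2 of the 7 (Tgfb3 and Smad3), against 28.9% of all tested genes.

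**Figure D3:**
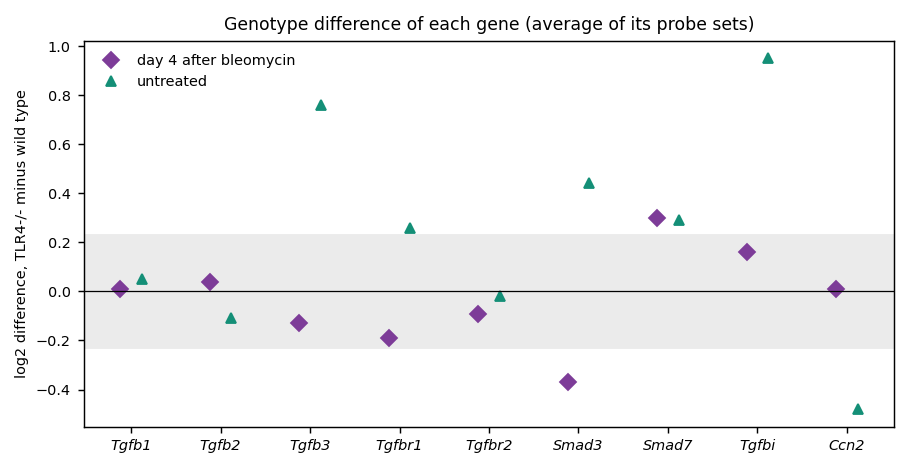
Difference on the log2 scale, TLR4-/- minus wild type (vertical axis), for the average over probe sets of each of the 9 genes, at day 4 (purple diamonds) and in untreated cells (green triangles), from 1 array per group. The grey band spans 0.23 either way, and the widest gaps between the treatments are those of Tgfb3 (-0.13 and 0.76), Smad3 (-0.37 and 0.44) and Tgfbi (0.16 and 0.95).

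Other genes of the pathway were taken from lists of known roles, and each list's count stands beside the 7.18% of all tested genes called higher and the 2.53% called lower. Of the genes that store or activate latent TGF-beta, 1 of 9 tested rose and 0 fell (16 of the list's 18 on the array here), with a median effect of 0.16, against 0.04 over all genes. That was Itgb6, the beta subunit of the epithelial integrin that releases active TGF-beta, which rose by 0.82 ± 0.20 (SE, limma adjusted p = 0.0234). It read 7.92 in TLR4-/- cells at day 4, against 7.55 in TLR4-/- untreated cells, and 8.09 in wild-type cells at day 4, against 6.83 in wild-type untreated cells. As with Tgfbi, the wild-type untreated array was the lowest, and the difference was 1.26 in wild type and 0.37 in TLR4-/-. The call was lost when arrays were centred on their medians, under robust moderation, when each gene was read by its brightest probe set, and on leaving out either day 4 array or the wild-type untreated array. Without the TLR4-/- untreated array 2 genes of the list were called higher. Furin, the protease that cleaves the ligand from its propeptide, had an effect of -0.08, and Thbs1, the activator thrombospondin-1, 0.32, neither called.

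Of the other receptors of the family, 0 of 8 tested were called, with a median of -0.06. The activin receptor genes Acvr2a and Acvr1b had effects of -0.21 and 0.02. Of the other Smads and their nuclear partners, 0 of 9 were called either way (median -0.16), with Smad4, the common partner of the receptor-activated Smads, at -0.19 and the co-activator Crebbp at -0.30.

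Among inhibitors of the pathway 2 of 17 tested rose and 1 fell (median 0.01), shares near those of all tested genes. Bgn, the small matrix proteoglycan biglycan, which binds TGF-beta, rose by 2.05 ± 0.16 (SE, limma adjusted p = 7.89e-06). It read 9.18 in TLR4-/- cells at day 4, against 7.09 in TLR4-/- untreated cells, and 9.34 in wild-type cells at day 4, against 7.34 in wild-type untreated cells, so the pairs were far apart in both genotypes. Strap, a partner of SMAD7 at the receptor, rose by 0.64 ± 0.16, and Nedd4l, a ubiquitin ligase that targets activated SMAD2 and SMAD3 and also the epithelial sodium channel, fell by 0.71 ± 0.16. Smurf2 and Fkbp1a, a ubiquitin ligase and a type I receptor binder, were at -0.20 and 0.01 and not called. The list's count higher was 0 without the TLR4-/- day 4 array and 1 without the wild-type day 4 array, with centred arrays, with the brightest probe set and without the filter. Its count lower was 0 without either day 4 array, with the brightest probe set and without the filter, and 2 without the wild-type untreated array.

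Of 17 other tested targets of TGF-beta known from various cells, 5 rose and 0 fell (median 0.09). They were Vim, an intermediate filament of mesenchymal and injured epithelial cells, at 1.73 ± 0.16, the cell cycle inhibitors Cdkn1a at 1.55 ± 0.19 and Cdkn2b at 0.57 ± 0.16, the collagen gene Col1a1 at 1.52 ± 0.16, and Myc at 1.0 ± 0.20 (SE, limma adjusted p of 2.74e-05 to 0.0446). Myc, a growth-promoting transcription factor that TGF-beta is known to repress in epithelium, was higher in TLR4-/- than in wild type by 1.17 in untreated cells, and by 0.30 at day 4. Cdkn1a is also a p53 target, and Col1a1 and Vim are abundant in fibroblasts. The brightest uncalled targets, Col4a1 and Bhlhe40, had effects of -0.26 and 0.44. Klf11 had the lowest effect of the list, at -0.53 ± 0.16 (SE, limma adjusted p = 0.0502), and was not called. The count that rose was 8 with a probe-set filter before averaging, 3 without the wild-type untreated array and 0 without either day 4 array. With quantile normalization, the probe-set filter or a trend in the moderation, 1 of the list fell.

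Ccn2 is also a target of the transcriptional co-activators YAP and TAZ. Of 11 tested genes of that list 4 rose and 0 fell (median 0.32): Ajuba at 1.40 ± 0.21, the tissue factor gene F3 at 0.88 ± 0.16, Ptpn14 at 0.77 ± 0.16 and Crim1 at 0.59 ± 0.16. Without the filter only 1 was called, and 0 without either day 4 array. Ccn1, the nearest relative of Ccn2 and a standard target of YAP, had an effect of 0.32 and was not called. It read 11.30 in TLR4-/- cells at day 4, against 10.75 in TLR4-/- untreated cells, and 11.27 in wild-type cells at day 4, against 11.18 in wild-type untreated cells. Of the other 4 members of the CCN family on the array none passed the filter.

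**Figure D4:**
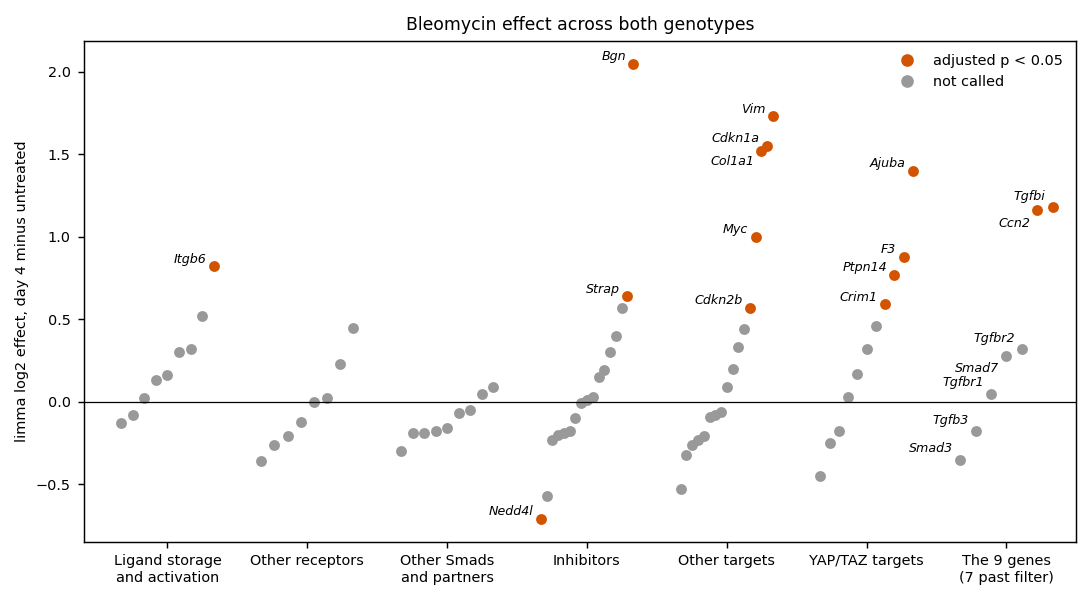
Limma effect of bleomycin across both genotypes on the log2 scale (vertical axis) for each tested gene of 6 pathway lists and for the 7 tested of the 9 genes described here. Orange points are called at an adjusted p under 0.05. Bgn (2.05) has the highest effect, and Tgfbi (1.18) and Ccn2 (1.16) lie above the other 5 of their group.

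Genes with a profile most like that of Tgfbi over the 4 arrays were Trp53inp1, Sema3c, Nudcd2, Csf2rb and Ccl3, by the root mean square distance between centred log2 profiles (0.04 to 0.11). Trp53inp1, a p53-induced gene, read 11.26 in TLR4-/- cells at day 4, against 10.42 in TLR4-/- untreated cells, and 11.15 in wild-type cells at day 4, against 9.57 in wild-type untreated cells. For Ccn2 the closest were Dusp14, Tstd3, C1ra, Anxa8 and Cd68 (0.06 to 0.11). Cd68 is on the list of macrophage and leukocyte markers described below. With 4 arrays, likeness is a description only.

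Markers of other cells moved with the treatment beside Tgfbi and Ccn2. In a pool of sorted cells, more cells of a type and more RNA per cell cannot be told apart. Of 15 macrophage and leukocyte markers on the array, 13 were tested and 11 rose. Their summed linear signal was 10215 in TLR4-/- and 7953 in wild type at day 4, against 3305 and 3223 in the untreated arrays of the same genotypes. Mesothelial markers rose in 4 of 4 tested (6 on the array), with sums of 3442 and 3292 at day 4, against 1321 and 1772 in untreated cells, and fibroblast markers in 1 of 2 tested (Col1a1, with 9 on the array), with sums of 1558 and 1834, against 676 and 903. AEC1 markers rose in 4 of 6 tested, with sums of 16716 and 16121, against 13916 and 12319. AEC2 markers rose or fell in 0 of 9, as did smooth muscle markers in 0 of 1, endothelial ones in 0 of 2 and platelet ones in 0 of 3. Lymphocyte markers rose in 1 of 1 tested (Cd2, with 6 on the array), but their sums were lower at day 4. These were 422 in TLR4-/- and 386 in wild type, against 454 and 455 in untreated cells. Neutrophil markers rose in 1 of 3 (Ltf), with sums of 3110 and 4514, against 2710 and 3909. Gpm6a rose by 1.87, Msln by 1.48, Upk3b by 1.12 and Krt19 by 1.0 among the mesothelial markers. Krt19, a keratin gene, was the brightest of that list on every array and weighs most in its sums. It read 11.02 in TLR4-/- and 10.63 in wild type at day 4, against 9.90 and 9.77 in untreated cells. Below the filter, Lrrn4 of that list was higher at day 4 by 1.46 in TLR4-/- and 1.28 in wild type, and Wt1 by 0.29 and 0.21. Of the fibroblast markers below the filter, Col3a1 was higher by 1.73 in both genotypes and Dpt by 1.61 and 1.43, while Pdgfra was higher by 0.10 and 0.13. The part of these cells in the rise of Tgfbi, Ccn2, Bgn, Vim and Col1a1 was not tested. In untreated cells Tgfbi was 0.95 higher in TLR4-/-. There the sums in TLR4-/- and wild type were 3305 and 3223 for macrophages and leukocytes and 1321 and 1772 for mesothelium. They were 676 and 903 for fibroblasts, and 13916 and 12319 for AEC1. Single macrophage and leukocyte markers went both ways in untreated cells, from -0.50 (Cd68) to 0.72 (Ptprc), TLR4-/- minus wild type.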

How the data were processed

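Total RNA of AEC2 was amplified and biotin labelled by the authors, per the labels' protocols. The deposited table was taken as log2 signals, a scale read from their range and near-equal medians (6.93 to 6.98). The sources used here do not give the software, background correction, normalization or detection calls. The number of arrays, 1 per group, limits the precision. Of 45101 probe sets, 34958 had 1 gene symbol, 932 several and 9211 none. Those with several or none were left out. Of those with 1 symbol, 34754 took their gene name from RefSeq by Entrez identifier, whether or not it differed from the annotation.

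Probe sets were averaged per gene. Genes with a mean above 7.05 (9097 of 18194) entered an additive fit in treatment and genotype by limma 3.58.1 (R 4.3.3, with empirical Bayes moderation), called at an adjusted p under 0.05, and single-array differences were counted from 2-fold. Tested on simulated data, the step recovered most changed genes, with a share of false calls above the nominal one. The 9 genes, the pathway and marker lists and the tests were chosen with earlier results of these data known. All 9 genes are named, of each pathway list up to 6 called genes by size, up to 3 genes past 2-fold in a single-array difference and up to 2 uncalled ones of highest mean, and for each tested gene with a range of at least 1 the 5 genes of nearest profile. The marker genes, those of the dim probe sets and Klf11 were named after their values were seen. Alternatives were array centring, quantile normalization, other filters and probe set choices, trend and robust moderation, and leaving out each array.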

Additional observations from a re-analysis of the deposited data

Results flagged for a closer look

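A set of 3 genes met the criterion that the bleomycin difference went one way in TLR4-/- and the other way in wild type, each on 1 pair of arrays. The difference between the genotypes was not tested. The response in TLR4-/- minus that in wild type was -0.90 for Tgfb3 (-0.63 and 0.27), -0.82 for Smad3 (-0.76 and 0.06) and -0.45 for Tgfbr1 (-0.17 and 0.28). For Smad3 the wild-type difference was under the 0.23 used for single arrays, and for Tgfbr1 the TLR4-/- difference was. Only Tgfb3 had opposite signs with both differences over 0.23, as did 3.69% of all tested genes. The share of all genes that met the criterion of sign alone was not counted. Of the 3 Tgfbr1 probe sets, 1420895_at was higher at day 4 in both genotypes (0.23 in TLR4-/- and 0.06 in wild type). All 3 genes read higher in the TLR4-/- untreated array than in the wild-type untreated array, by 0.76, 0.44 and 0.26. The same untreated values enter the differences that the criterion used, so this is not a separate observation.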

How the results depend on the processing

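No paired analysis was possible because each group had 1 array and the labels carry no replicate numbers. Over all genes, bleomycin calls were 653 higher and 230 lower as reported, 378 and 106 with arrays centred on their medians, 319 and 48 without the filter, 279 and 62 with each gene's brightest probe set, and 239 and 22 with probe sets tested without a filter. Leaving out 1 array gave 0 to 802 higher and 0 to 227 lower. The lowest counts were without the TLR4-/- day 4 array (0 and 0) and without the wild-type day 4 array (18 and 3), and without the wild-type untreated array there were 375 higher. These fits have fewer arrays and no genotype term.

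The count of the 9 genes called higher was 2 as reported and 1 without the filter (Ccn2), with the brightest probe set (Ccn2) and with probe sets tested without a filter (Tgfb2). It ran from 0 to 2 on leaving out 1 array. For genotype, a probe-set filter before averaging gave 23 genes higher and 10 lower, against 0 and 0, and the cause was not tested. Counted on single probe sets past their own filter, with 3.79%, 2.55%, 2.07% and 3.27% of 9804 genes past 2-fold in the same 4 counts, 2 members of the set reached 2-fold upward in TLR4-/- after bleomycin (Ccn2 and Tgfbi), 1 lower (Smad3), 1 higher in TLR4-/- when untreated (Tgfbi), and 1 lower in the difference of responses (Smad3).

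Small uncalled effects turned sign. For bleomycin, Tgfbr1 (0.05) was -0.07 with the brightest probe set, and on leaving out 1 array -0.08 (wild-type untreated) to 0.19. Without the wild-type day 4 array it was -0.04. Tgfb3 (-0.18) ran from -0.56 to 0.20, its one positive value, without the TLR4-/- untreated array. For genotype, quantile normalization gave -0.02 for Smad3 and -0.03 for Tgfbr1, and the brightest probe set 0.04 for Tgfbr2. On leaving out 1 array, Ccn2 ran from -0.94 to 0.47, Smad3 from -0.34 to 0.42, Tgfbi from -0.23 to 1.34, Tgfbr1 from -0.10 to 0.18 and Tgfbr2 from -0.23 to 0.12. The sign turned without the TLR4-/- untreated array for Ccn2 (0.47), Smad3 (-0.34), Tgfbr1 (-0.05) and Tgfbr2 (0.09), without the wild-type day 4 array for Ccn2 (0.22) and Tgfbr2 (0.12), and without the wild-type untreated array for Tgfbi (-0.23) and Tgfbr1 (-0.10). Among untested differences of the 9 genes under other settings, 170 moved by less than 0.23 and 5 by more, all 5 with the brightest probe set. Signals near or below 7.05, as for Tgfb2, limit the size of a fold.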

Other observations

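Several matrix and activation genes of the lists were kept out of the tests by their low untreated signals, and are given here as values chosen after they were seen. Plau, the urokinase that generates plasmin, an activator of latent TGF-beta, read 7.61 in TLR4-/- cells at day 4, against 5.72 in TLR4-/- untreated cells, and 7.54 in wild-type cells at day 4, against 5.37 in wild-type untreated cells. The fibronectin gene Fn1 read 7.84 in TLR4-/- cells at day 4, against 5.90 in untreated ones, and 7.37 in wild-type cells at day 4, against 6.11 in untreated ones. Col3a1 was higher at day 4 by 1.73 in both genotypes.

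Ccn3, a relative of Ccn2, followed genotype more than treatment. It was higher in TLR4-/- than in wild type by 1.08 at day 4 (6.44 against 5.36) and by 1.77 in untreated cells (6.39 against 4.62), at signals below the filter on every array and with no test.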
